A study of Homo sapiens with 42 samples.

Results

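The comparison described here asked how the loading of messages onto heavy polysomes differed between MOLM-13 cells given everolimus alone and cells given vehicle, both in hBMSC-CM. MOLM-13 is a human acute myeloid leukemia (AML) line with FLT3-ITD, a tandem duplication that keeps the kinase FLT3 active. The hBMSC-CM was a mixture, in equal parts, of RPMI and medium taken from HS-5, a human marrow stroma line, so no stromal cells were meant to be present. Everolimus was given at 10 nM for 12 hours and the vehicle was DMSO. From every culture, poly(A) RNA of the whole lysate (input) and of the heavy polysome fraction of a sucrose gradient, where messages carry several ribosomes, was sequenced. Each of the 2 conditions had 3 numbered replicates, called cultures here, though the labels do not say that they were separate cultures. The members were thus 12 of the 42 libraries of the series, chosen by their labels for drug, medium and fraction. The other 30 libraries, from cells given quizartinib (an inhibitor of FLT3) or quizartinib with everolimus (combo) in either medium, or vehicle in plain RPMI medium, served for the shared estimate of the spread and for the comparisons at the end. All cells were of 1 line labelled wild type, and no plain medium group with everolimus alone was analysed here.

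The polysome to input ratio of a gene was log2 CPM (counts scaled to a common library total) in heavy polysomes minus log2 CPM in the input with the same group and number. Deviations of such library pairs from their group means correlated at 0.30, 0.18 and 0.23 under vehicle and at 0.01, -0.02 and 0 under everolimus, so a match within everolimus cultures was not visible in the data. The polysome shift was the ratio under everolimus minus the ratio under vehicle. Both are relative measures: counts in a fraction say how its reads were divided among messages, and not how much RNA the fraction held or how many ribosomes sat on a message.

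Everolimus binds FKBP12 and inhibits mTORC1, the kinase complex that couples nutrients and growth factor signals to protein synthesis. Active mTORC1 phosphorylates the 4E-BP repressors, which releases the cap-binding protein eIF4E, and it also phosphorylates LARP1, a protein that binds capped messages beginning with a terminal oligopyrimidine (TOP) tract. A TOP tract is a C at the first transcribed base followed by a run of C and T. Nearly all messages for cytosolic ribosomal proteins and several for translation factors carry one, and they are the class best known for leaving polysomes when mTORC1 is inhibited. Allosteric inhibitors of the rapamycin family, to which everolimus belongs, are known to block the phosphorylation of S6 kinase more completely than that of the 4E-BPs.

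The starts of the TOP messages named below, and of 3 genes with small unadjusted p for the shift outside the TOP lists, are shown because a TOP tract is what the ribosomal protein messages and the other TOP messages are known to share. Each line gives 10 bases before and 20 bases from the RefSeq start (GRCh38.p14), 5′ to 3′, with the uninterrupted pyrimidine run from a C at the start in capitals.
RPS6 (chr9:19380217-19380246, minus strand): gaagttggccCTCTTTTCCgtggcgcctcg
RPS3 (chr11:75399508-75399537, plus strand): cgagccacttCCTTTCCTTTCagcggagcg
RPLP0 (chr12:120201092-120201121, minus strand): ggcgcgaggcCCTTCTCTCgccaggcgtcc
RPL3 (chr22:39319604-39319633, minus strand): gccgaccggcCTCTaccggcgggatttgat
EEF2 (chr19:3985444-3985473, minus strand): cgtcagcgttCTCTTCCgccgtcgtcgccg
EEF1A1 (chr6:73521013-73521042, minus strand): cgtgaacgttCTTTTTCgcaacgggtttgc
TPT1 (chr13:45341164-45341193, minus strand): ctgagtcggcCTTTTCCgcccgctcccccc
EIF4B (chr12:53006446-53006475, plus strand): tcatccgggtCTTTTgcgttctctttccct
DSTN (chr20:17570065-17570094, plus strand): aggcgcgcccgccccggggtaagctcgcgc
TMEM9B (chr11:8964423-8964452, minus strand): cttcgcgtccagacggaagtgcgggcggag
RRBP1 (chr20:17682223-17682252, minus strand): gctctgaggcagaaagtgccacgactccac

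The pyrimidine run was 11 bases long in RPS3, 9 in RPS6 and RPLP0, 7 in EEF2, EEF1A1 and TPT1, 5 in EIF4B and 4 in RPL3. At the listed starts of DSTN, TMEM9B and RRBP1 there was none. A run of at least 5 bases from a C, read on the transcribed strand only, was present at 4.07% of the 35116 RefSeq starts in the table. By gene, it was present in 7.79% of the 9292 tested genes with a listed start and in 48 of the 64 ribosomal protein genes with one (75%). Starts of RPL32, RPS20 and PABPC1 are not shown.

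The 12 libraries held 21.5 to 36.4 M (mega) counts. Their 10 fixed markers of myeloid leukemia, FLT3, SPI1 and MPO among them, all had counts in every library and summed to 1910 to 2970 CPM. The 10 markers of marrow stroma summed to 143 to 155 CPM in vehicle input, 160 to 175 CPM in everolimus input, 188 to 195 CPM in vehicle polysomes and 240 to 256 CPM in everolimus polysomes, with 3 to 6 of them at 0 in each library. Without TMM factors (a scaling of library totals), as in these sums, they lay higher under everolimus in both fractions. These factors, used for single genes, were 0.734 to 0.852 in vehicle and 0.921 to 0.935 in everolimus polysomes. In input they were 1.06 to 1.2 and 1.16 to 1.17. In plain RPMI the markers summed to 145 to 160 CPM in vehicle input and 185 to 219 CPM in vehicle polysomes. With quizartinib in RPMI they summed to 235 to 267 CPM in polysomes. The part of these markers in the results was not tested. In such bulk samples fewer cells of a type and less RNA per cell cannot be told apart. In 2 ways the everolimus libraries stood apart. Heavy polysome libraries 2 and 3 of everolimus held more transcripts of an epithelial list, written after the data were seen and called epithelial transcripts below. Its 26 genes, of which 11 passed the expression filter, summed to 747 and 1200 CPM there. They summed to 39.1 to 178 CPM in the other 40 libraries of the series. Of the 11, 7 were called higher in everolimus polysomes (2.49% of all genes were) and 0 lower (2.64% of all genes). As the list was written after these libraries were seen, this count describes them and is no test. SPINT1, CLDN7 and KRT18 of this list changed little (log2 -0.02, 0.40 and 0.08 in polysomes). KRT81 had 346 and 472 CPM in libraries 2 and 3. Keratin 7 (KRT7) was at 59.1 and 123 CPM in these libraries and at 0.349 CPM in everolimus polysome library 1. The everolimus cultures also differed less among themselves than those of any other condition in hBMSC-CM, with a biological coefficient of variation of 0.0715 in input and 0.136 in polysomes, against 0.294 and 0.345 for vehicle. They still differed by more than sampling noise and were counted as 3 samples. The labels number the replicates but do not say that they were separate cultures, so the spread between them may be technical. The p-values and standard errors rest on a spread estimated over all 42 libraries (common biological coefficient of variation 0.279). They do not measure the spread of the 12 libraries alone, and the spread among the everolimus libraries was narrower.

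No gene passed the test for a polysome shift under everolimus. Of 12939 genes tested, 0 (0%) had an adjusted p under 0.05 in edgeR, and the lowest adjusted p was 0.0694. An unadjusted p under 0.05 was reached by 573 genes (4.43%), 270 of them higher (2.09%) and 303 lower (2.34%), where 647 would pass by chance. DESeq2 called 7 genes, all higher, 3 of them on the epithelial list, and limma voom called 0. Without everolimus culture 1, edgeR called 6 genes, all higher and 5 of them epithelial. The 3 everolimus ratios all lay above the 3 vehicle ratios in 1189 genes (9.19%) and all below them in 1150 genes (8.89%). Scaling by library size without TMM factors moved the median shift of all genes from 0.01 to 0.20, so list medians are given beside it where they changed sign.

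The ribosomal protein messages lay lower relative to input under everolimus, in both subunits, although no single one passed the test. Of the 80 genes, 75 had a shift below 0 (49% of all genes did), and the median shift was -0.44 on the log2 scale, beside 0.01 over all genes tested. The ratios of the groups did not overlap in 45 of the 80, all lower (56.2%, against 8.89% of all genes), and none was higher without overlap. An unadjusted p under 0.05 was reached by 9 of the 80, all lower (2.34% of all genes were). Shifts ran from -1.01 to 0.82. The 5 above 0 were RPLP1, RPL41, RPL22, RPS26 and RPL36A, named here after their values were seen. The ribosomal protein genes were listed from general knowledge, with earlier results of these data known.

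The median ratio of the 80 messages was -0.10, 0.19 and -0.19 in vehicle cultures 1, 2 and 3, and -0.45, -0.48 and -0.40 in everolimus cultures 1, 2 and 3. The 3 everolimus cultures thus lay close together and below all 3 vehicle cultures. Over all genes tested the median ratio was -0.14, -0.11 and -0.07 in vehicle and -0.03, -0.04 and -0.04 in everolimus. Among the 47 large subunit messages, 43 had a shift below 0 and the median was -0.44. Among the 33 small subunit messages it was 32 and -0.43. Vehicle culture 2 held the highest ratios, and without it the median shift of the 80 genes was -0.25. With everolimus culture 1 alone, which lacked the epithelial transcripts, it was -0.51. With library size only the median of the ribosomal proteins was -0.25, so its distance to the median of all genes was -0.45 under either scaling.

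**Figure D1:**
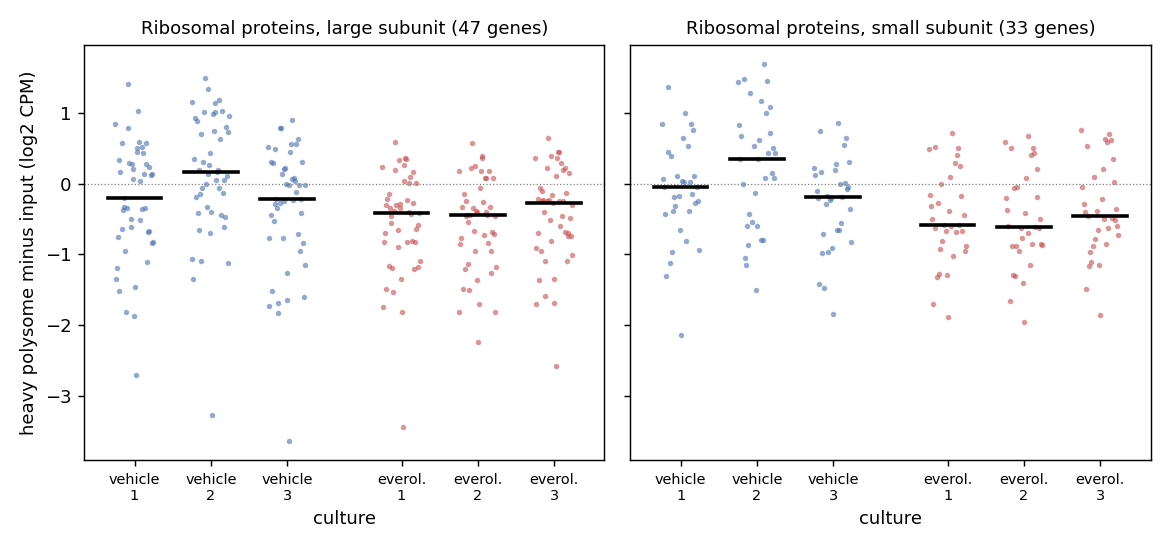
Ratio of heavy polysome to input (log2 CPM) of each ribosomal protein gene (points) in 3 vehicle and 3 everolimus cultures, with the median as a black bar, for 47 large and 33 small subunit genes. The everolimus medians (-0.41, -0.44 and -0.27 for the large, -0.58, -0.61 and -0.46 for the small subunit) lie below every vehicle median.

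RPS6, the small subunit protein that S6 kinase phosphorylates, had 3058, 2705 and 5135 CPM in the vehicle polysomes and 2358, 2523 and 2494 CPM in the everolimus polysomes. In input it had 3986, 3654 and 6244 CPM under vehicle and 4458, 4648 and 4596 CPM under everolimus, so the groups overlapped in input and did not in polysomes. Its ratio was -0.37 ± 0.08 (SD, n = 3) under vehicle and -0.89 ± 0.02 under everolimus, and its shift was -0.54 ± 0.31 (SE of the fit, as for every shift given here). RPS3, which lines the entry of the message channel, had ratios of 0.76, 1.09 and 0.65 under vehicle and 0.25, 0.21 and 0.35 under everolimus, again without overlap, and a shift of -0.55 ± 0.28. RPL3, next to the peptidyl transferase center, had ratios of 1.03, 1.01 and 0.55 under vehicle and 0.37, 0.38 and 0.45 under everolimus (shift -0.44 ± 0.23). RPLP0, the base of the stalk that recruits elongation factors, had a smaller shift of -0.27 ± 0.30. Adjusted p in edgeR was 0.9997 for each of the 4.

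RPL15 (chr3:23916591-23924374 in GENCODE v44, GRCh38) was the ribosomal protein gene with the smallest unadjusted p. It had 2568, 2651 and 2990 CPM in vehicle polysomes and 1808, 1936 and 1942 CPM in everolimus polysomes, with a shift of -0.64 ± 0.21. In heavy polysomes taken on their own, not relative to input, RPL15 fell by 0.53 on the log2 scale (adjusted p = 0.0295), while its input change was 0.11. RPL13A (shift -0.77 ± 0.29), RPL19 (-0.55 ± 0.24) and RPL7A (-0.61 ± 0.27) in the large subunit, and RPS7 (-0.70 ± 0.27), RPS18 (-0.66 ± 0.28), RPS25 (-0.77 ± 0.34) and RPS9 (-0.62 ± 0.30) in the small subunit, had ratios that did not overlap either. RPL13AP5 (-0.90 ± 0.29) and RPL15P18 (-0.96 ± 0.31), processed copies of ribosomal protein genes, had the same pattern and share reads with their parents. Each of the 80 genes has at least 1 pseudogene named after it in GENCODE v44, and how the counting divided such reads is uncertain.

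Messages for translation factors and other proteins with known TOP tracts moved less together. Of 26 tested, 18 had a shift below 0, with a median of -0.19, 2 were lower without overlap (7.69%, against 8.89% of all genes), and 0 were higher. The median was 0.02 without vehicle culture 3 and -0.005 with library size only. EEF2, the elongation factor that moves the ribosome along the message, had ratios of 1.19, 0.57 and 1.63 under vehicle and 0.87, 0.86 and 0.87 under everolimus, with a shift of -0.30 ± 0.46. EEF1A1, which brings aminoacyl-tRNA to the ribosome, had ratios of -0.50, -0.81 and 0.59 under vehicle and -0.21, -0.22 and -0.22 under everolimus, with a shift of -0.05 ± 0.37. In both genes the everolimus cultures lay close together, inside the wide span of the vehicle cultures. The same held for TPT1 (shift -0.19 ± 0.60), a growth-related protein, and EIF4B (-0.19 ± 0.35), a helper of the helicase eIF4A. PABPC1, the poly(A)-binding protein, had a shift of 0.17 ± 0.73. NAP1L1, a histone chaperone, had ratios that did not overlap (shift -0.44 ± 0.25), and so had IPO7, an importin (-0.52 ± 0.39).

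**Figure D2:**
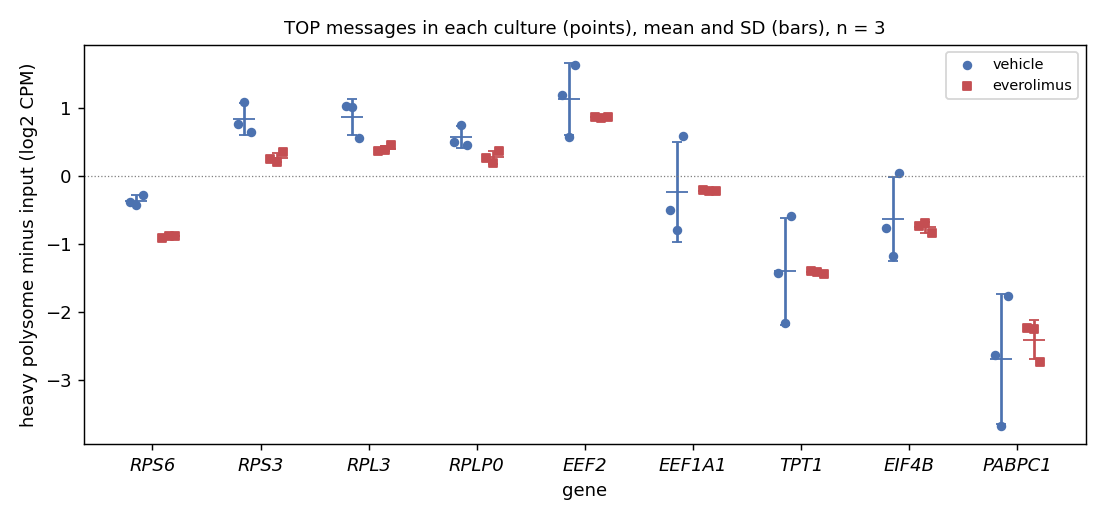
Ratio of heavy polysome to input (log2 CPM) of 9 TOP messages in each culture (circles vehicle, squares everolimus), with the mean and SD of 3 cultures. The groups are apart for RPS6, RPS3, RPL3 and RPLP0 and overlap for EEF2, EEF1A1, TPT1, EIF4B and PABPC1.

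A TOP run at the listed start did not by itself go with a lower ratio. The 659 genes with such a run outside the ribosomal protein and other TOP lists had a median shift of 0.01, and 7.59% of them were lower without overlap (8.89% of all genes). The 48 ribosomal protein genes with the run at the listed start had a median of -0.42, and the 16 without it a median of -0.41. Listed starts are an annotation, not starts measured in these cells. The 21 host genes of snoRNAs, which often carry TOP tracts but whose spliced RNA is mostly not translated, had a median shift of 0.09, with 8 below 0. In polysomes 1 of them rose (2.49% of all genes did) and 2 fell (2.64% of all genes).

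Components of the mTORC1 pathway and of initiation showed no common direction. Of 33 mTORC1 pathway genes, 15 had a shift below 0 and the median was 0.03. RPTOR, the scaffold of mTORC1, had ratios of 1.43, 1.11 and 0.92 under vehicle and 0.72, 0.76 and 0.51 under everolimus (shift -0.48 ± 0.26). TSC2, which restrains mTORC1, also lay lower without overlap (-0.72 ± 0.42), whereas EEF2K, the kinase that inactivates eEF2, and LAMTOR3, a part of the lysosomal anchor of mTORC1, lay higher without overlap (0.44 ± 0.28 and 0.76 ± 0.43). MTOR itself had a shift of -0.47 ± 0.50 and LARP1 of -0.28 ± 0.25, both with overlapping cultures. Of 30 initiation factors and repressors, 20 had a shift below 0 (median -0.11, and 0.09 with library size only). EIF4G1 (chr3:184314495-184335358), the scaffold of the cap-binding complex, stood lowest. It had 717, 704 and 548 CPM in vehicle polysomes and 275, 280 and 243 CPM in everolimus polysomes, with 313, 384 and 260 CPM and 277, 246 and 253 CPM in the inputs. Its shift was -1.0 ± 0.33, and in heavy polysomes on their own it fell by 1.30 (adjusted p = 0.00113). In polysomes 5 of the 30 fell (2.64% of all genes did; 0 with everolimus culture 1 alone). Of the 33 mTORC1 pathway genes 1 rose and 1 fell, near the shares of all genes (2.49% and 2.64%). EIF4EBP1, which encodes the repressor 4E-BP1, fell by 0.89 in input (adjusted p = 0.0452) and had a shift of 0.28 ± 0.30.

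The aminoacyl-tRNA synthetases, which charge tRNAs with amino acids, were the other group whose ratios lay lower under everolimus. Of 20, 17 had a shift below 0, the median was -0.34, and 10 were lower without overlap (50%, against 8.89% of all genes). With library size only the median was -0.15, and 4 were lower without overlap (20%, against 4.37% of all genes). The distance to the median of all genes was -0.353 with TMM factors and -0.355 with library size only. Per culture the median ratio was 0.59, 0.28 and 0.34 under vehicle and -0.01, 0.03 and -0.16 under everolimus. FARSA (chr19:12922479-12934037), the alpha subunit of the phenylalanine enzyme, had ratios of 2.11, 1.85 and 1.35 under vehicle and 0.88, 1.07 and 0.97 under everolimus, a shift of -0.82 ± 0.30. VARS (-0.91 ± 0.38), CARS (-0.63 ± 0.27) and AARS (-1.02 ± 0.48), the valine, cysteine and alanine enzymes, had ratios without overlap as well. None passed the test for the shift. Coding length was not taken into account for this list. The longest group of genes by coding length, given below, had a median shift of -0.15, with 16.4% lower without overlap. In polysomes on their own 10 of the 20 fell (2.64% of all genes did), among them FARSA (log2 change -1.36, adjusted p = 1.96e-04) and AARS (-1.51, adjusted p = 0.00781), while in input none passed and the median change was -0.40. The polysome count was 4 to 6 without 1 everolimus culture, 4 without vehicle culture 1, 5 with library size only or with only the 6 polysome libraries in the fit, and 0 with everolimus culture 1 alone.

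Messages of the mitochondrial respiratory chain had a median shift above 0, as short messages in general did. Of 74 nuclear genes for the 5 complexes of oxidative phosphorylation (OXPHOS), 19 had a shift below 0 (49% of all genes did), and the median was 0.22. Their median coding length was 469.5 bases, and the genes with coding lengths of 111 to 879 bases, ribosomal proteins left out, had a median shift of 0.21. Of the 74, 10 were higher without overlap (13.5%, against 9.19% of all genes and 17.4% of those short genes) and 3 lower. The median ratio per culture was 0.31, 0.83 and 0.20 under vehicle and 0.66, 0.56 and 0.78 under everolimus, so vehicle culture 2 lay above all everolimus cultures. The median shift was 0.04 without vehicle culture 3 and 0.09 with everolimus culture 1 alone. Complex I, which oxidizes NADH, had a median of 0.26 over 34 genes, complexes II to IV 0.15 over 24, and the ATP synthase 0.13 over 16. NDUFA1 of complex I had ratios of -0.08, -0.06 and -0.34 under vehicle and 0.60, 0.59 and 0.94 under everolimus (shift 0.90 ± 0.26). SDHD of complex II (0.67 ± 0.30), COX7A2 (0.55 ± 0.27) and COX6A1 (0.65 ± 0.40) of complex IV and ATP5ME of the ATP synthase (0.85 ± 0.42) were higher without overlap. ATP5F1B and ATP5F1A, the catalytic beta and alpha subunits of the ATP synthase, were lower without overlap (-1.01 ± 0.55 and -0.46 ± 0.32), and NDUFV1, the NADH-binding subunit of complex I, had a shift of -0.60 ± 0.32 with overlap. ATP5MC1 had a shift of 0.34 ± 0.45, CYCS, cytochrome c, of 0.29 ± 0.46, IDH3A, a citrate cycle enzyme, of 0.07 ± 0.24, and TFAM, which packages mitochondrial DNA, of 0.63 ± 0.41.

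The OXPHOS messages had a median change of -0.35 in input and of -0.11 in polysomes. In input none of the 74 passed the test, and in polysomes 2 fell, NDUFV1 (log2 change -0.77) and ATP5F1A (-0.76), a share near the 2.64% of all genes. Mitochondrial ribosomal proteins had a median shift of 0.14 over 73 genes, a median input change of -0.35 and a median polysome change of -0.20. The median shift was -0.013 without vehicle culture 3 and -0.010 with everolimus culture 1 alone. Of the 73, 6 were higher without overlap (8.22%, below the 9.19% of all genes), among them MRPL33 (0.76 ± 0.37), MRPL32 (0.84 ± 0.45) and MRPL52 (0.45 ± 0.31). The 13 messages that mitochondria encode and translate themselves made up 3.17% to 7.05% of input counts and 0.0734% to 0.282% of polysome counts, and their median shift was 0.41. Of the 13, 4 had a shift below 0. The ratios were higher without overlap in 3 (23.1%, against 9.19% of all genes), among them MT-CO1 and MT-CYB (0.88 ± 0.71 and 0.71 ± 0.58).

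**Figure D3:**
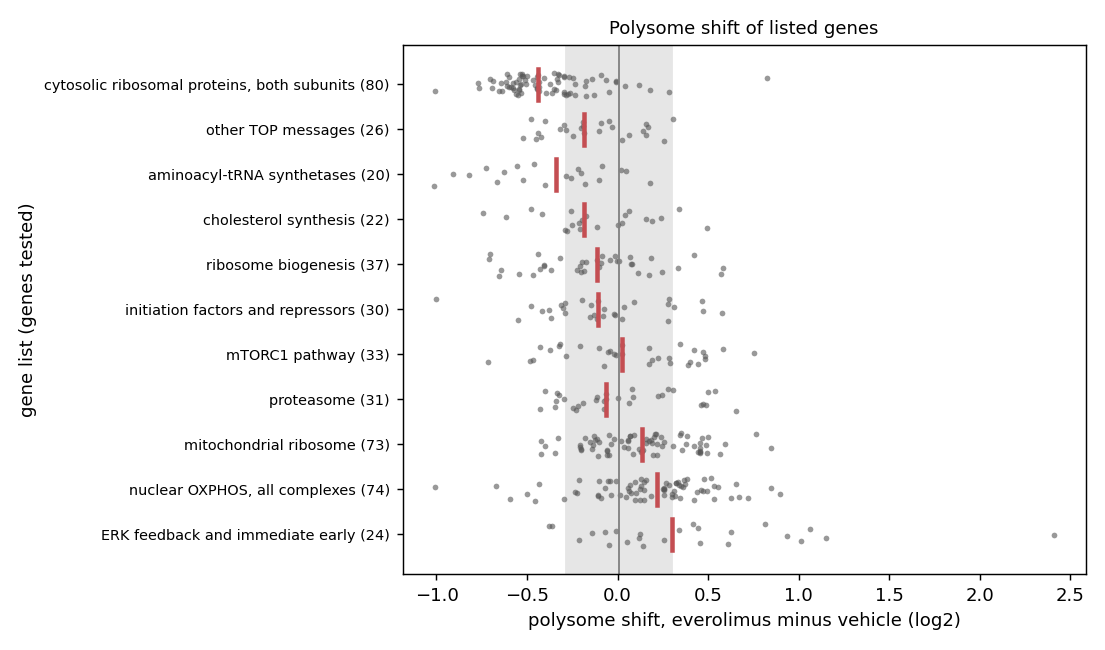
Polysome shift of single genes (points) in 11 lists, with the list median as a red bar, the median of all 12939 genes as a grey line and their middle 50% as a grey band. The ribosomal protein median is -0.44, that of the aminoacyl-tRNA synthetases -0.34 and that of the nuclear OXPHOS genes 0.22.

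Coding length moved with the shift across genes. Of the tested genes 83.6% had a coding length in GENCODE v44, and with the ribosomal proteins left out Spearman's rho of coding length and shift was -0.31 over 10731 genes. All genes share the same 12 libraries, so this describes these libraries and carries no test. With the genes split into 4 groups of nearly equal number, the shortest group (111 to 879 bases) had a median shift of 0.21 and 17.4% of its genes were higher without overlap (9.19% of all genes). In the longest group (2226 to 26775 bases) the median was -0.15, and 16.4% were lower without overlap (8.89% of all genes). With library size only the median of the longest group was 0.05, and 6.63% were lower without overlap (4.37% of all genes). Its distance to the median of all genes was -0.156 with TMM factors and -0.152 with library size only. The median ratio of the shortest group was 0.03, 0.31 and 0.00 under vehicle and 0.32, 0.34 and 0.48 under everolimus. That of the longest group was -0.57, -0.70 and -0.13 under vehicle and -0.52, -0.47 and -0.65 under everolimus, where vehicle culture 3 stood apart, and without it the median shift of the longest group was -0.004. Ribosomal protein messages are short (median coding length 472.5 bases), and their median shift had the opposite sign from that of the shortest group.

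**Figure D4:**
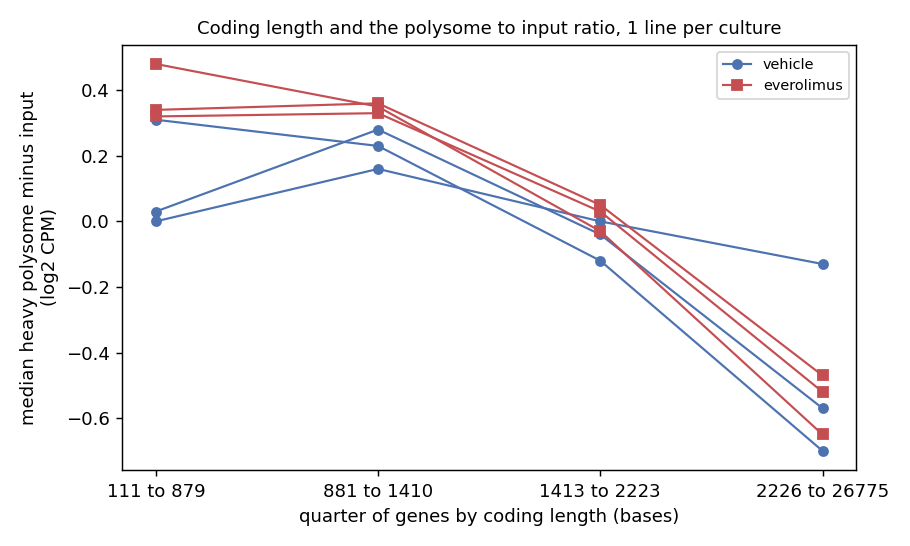
Median ratio of heavy polysome to input (log2 CPM) in 4 groups of genes by coding length (bases), ribosomal proteins left out, with 1 line per culture. The everolimus lines lie above every vehicle line in the shortest group and inside the vehicle range in the longest.

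Among genes above a mean of 10 CPM without overlap, those with the smallest unadjusted p for a higher ratio were KRT7, UBE2W, DSTN, TMEM9B and NDUFA1, and none passed the test. KRT7 had 0, 0 and 0.256 CPM in vehicle polysomes, and its values under everolimus are those of the libraries with epithelial transcripts. UBE2W, a ubiquitin-conjugating enzyme, had 2.63, 3.62 and 2.90 CPM in vehicle polysomes and 7.99, 7.19 and 7.39 CPM in everolimus polysomes, with 17.7 to 21.0 CPM in the 6 inputs. Its shift was 1.24 ± 0.27 (adjusted p = 0.156 in edgeR, 0.0240 in DESeq2). DSTN, the actin-severing protein destrin, had 12.2, 17.6 and 12.9 CPM in vehicle polysomes and 18.4, 32.4 and 41.3 CPM in everolimus polysomes (shift 1.53 ± 0.34, adjusted p = 0.156 in edgeR, 0.0353 in DESeq2). In DSTN the highest values were those of the libraries with epithelial transcripts, and their part in the shift was not tested, whereas UBE2W was as high in everolimus library 1. TMEM9B, a lysosomal membrane protein, had a shift of 1.15 ± 0.29. On the lower side, next to RPL15 and its relatives, were RRBP1, a ribosome-binding protein of the endoplasmic reticulum (-0.91 ± 0.28), and AC080038.1 (-1.04 ± 0.31), whose exons overlap a gene on the opposite strand, so that their reads may not be told apart. RRBP1 had ratios of -0.75, -0.31 and -0.26 under vehicle and -1.32, -1.20 and -1.46 under everolimus, with 148, 181 and 150 CPM in vehicle input and 171, 158 and 158 CPM in everolimus input.

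Input and heavy polysome RNA, each on its own, showed which groups moved in both layers. In input 53 genes passed the test (0.41%), 29 higher (0.224%) and 24 lower (0.185%). In heavy polysomes 663 passed (5.12%), 322 higher (2.49%) and 341 lower (2.64%). Of the 53, 43 also passed in polysomes, all in the same direction. The polysome count was 123 with only the 6 polysome libraries in the fit, 147 to 916 with 1 culture left out, and 13 with everolimus culture 1 alone. The largest input rise by the naming rule was in FBXO32, a ubiquitin ligase subunit and known FOXO target, with 4.46, 4.75 and 4.62 CPM under vehicle and 13.3, 14.4 and 13.8 CPM under everolimus. It rose by 1.59 in input (adjusted p = 1.88e-04) and by 1.61 in polysomes (adjusted p = 6.67e-05), and its shift was 0.02 ± 0.32. STC2, a secreted glycoprotein of the ATF4 response, had the largest input fall by the naming rule (-2.02, adjusted p = 0.0270) and changed by -1.56 in polysomes.

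Genes of cholesterol synthesis fell in both layers. Of 22 genes, 7 fell in input (0.185% of all genes did) and 15 in polysomes (2.64% of all genes), all 7 in both, and none rose. With 1 everolimus culture left out 2 or 3 fell in input and 9 to 11 in polysomes, and 4 fell in input without vehicle culture 3. The polysome count was 8 with only the 6 polysome libraries in the fit and 0 with everolimus culture 1 alone. LSS (chr21:46188141-46228824), which closes the sterol ring, had 26.1, 32.0 and 40.6 CPM in vehicle input, 13.2, 10.5 and 13.1 CPM in everolimus input, 119, 74.5 and 62.1 CPM in vehicle polysomes and 17.2, 19.6 and 19.9 CPM in everolimus polysomes. It fell by 1.43 in input (adjusted p = 0.0389), and its change in polysomes (-2.17, adjusted p = 1.71e-04) was the largest fall there by the naming rule. SQLE, the squalene epoxidase, changed by -1.65 in input and -1.15 in polysomes, and DHCR7, which makes the last step, by -1.91 in polysomes (adjusted p = 0.00169). SREBF1, the transcription factor of the pathway, fell by 0.94 in polysomes. Shifts of the group had a median of -0.19 (0.003 with library size only), with 13 of 22 below 0.

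Genes of the amino acid response fell as well. Of 25, 3 fell in input (0.185% of all genes did) and 9 in polysomes (2.64% of all genes). The input count was 0 without any 1 of the everolimus cultures or without vehicle culture 1. The polysome count was 3 or 4 without 1 everolimus culture, 2 without vehicle culture 1, 3 with only the 6 polysome libraries in the fit and 0 with everolimus culture 1 alone. Over the 25, the median shift was -0.05 (0.093 with library size only). PHGDH, the first enzyme of serine synthesis, had 1043, 574 and 464 CPM in vehicle polysomes and 219, 209 and 198 CPM in everolimus polysomes (log2 change -1.73, adjusted p = 0.00304). SHMT2, the mitochondrial serine hydroxymethyltransferase, changed by -1.18 there and SLC7A5, a leucine transporter, by -0.90. CEBPG, a partner of ATF4, did not pass in polysomes (0.63, adjusted p = 0.21) and had a shift of 0.65 ± 0.40, and ATF4 itself had a shift of -0.05 ± 0.44. Of 27 ER chaperones, 7 fell in polysomes (4 to 9 with 1 culture left out, 0 with everolimus culture 1 alone) and 1 in input, among them PDIA3 (-1.01, adjusted p = 2.66e-04), HYOU1 (-1.66) and P4HB (-0.78). Over all genes 2.64% fell in polysomes and 0.185% in input. PDIA3, HYOU1 and P4HB also had lower ratios without overlap, with shifts of -0.58 ± 0.23, -0.79 ± 0.44 and -0.83 ± 0.31. The median shift of the 27 was -0.13, and 0.08 with library size only.

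The growth and division lists were split, and their polysome counts stand beside 2.64% of all genes lower there and were 0 in every list with everolimus culture 1 alone. Of 37 ribosome biogenesis genes 5 fell in polysomes and 0 in input, among them PES1 (-1.19), BOP1 (-1.16) and FBL (-0.81), the median shift was -0.11 (0.056 with library size only), and GAR1 had a higher ratio without overlap (shift 0.57 ± 0.34). Of 39 DNA replication genes 5 fell in polysomes, among them CDC45 (-1.59, adjusted p = 0.00347), MCM2 (-1.37), MCM7 (-1.22) and POLD1 (-1.06). These 4 had lower ratios without overlap, while the median shift of the list was -0.002 (0.19 with library size only). Of 39 mitosis genes 0 passed in either layer and the median shift was -0.13 (0.06 with library size only). KIF4A (-0.95 ± 0.37) and NUF2 (-0.83 ± 0.41) were lower and MAD2L1 (0.58 ± 0.28) higher without overlap. Of 31 proteasome genes 5 fell in polysomes, among them PSMC3 (-0.68), and the median shift was -0.06 (0.15 with library size only). Of 20 glycolysis genes 2 fell in polysomes, among them PGK1 (-1.06), the median shift was -0.14 (0.068 with library size only), and PFKL (-1.24 ± 0.51) and GAPDH (-0.53 ± 0.31) had lower ratios without overlap. The 11 tested histone genes, whose messages mostly lack a poly(A) tail, had a median shift of -0.75, and their median ratio was 0.18, 1.53 and 0.33 under vehicle and 0.83, -0.52 and -0.10 under everolimus.

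Some genes of ERK feedback and the immediate early response rose. Of 24, 2 rose in input (0.224% of all genes did) and 7 in polysomes (2.49% of all genes), none fell, and the median shift was 0.30. That median ran from 0.12 to 0.48 over 12 alternatives. The ratios were higher without overlap in only 1 of the 24 (4.17%, against 9.19% of all genes) and lower in 0. FOS, an AP-1 subunit, had 27.8, 44.2 and 33.4 CPM in vehicle polysomes and 112, 99.7 and 97.7 CPM in everolimus polysomes. It rose by 1.11 in input (adjusted p = 0.0278) and by 1.55 in polysomes (adjusted p = 2.19e-04). EGR1, another immediate early factor, rose by 1.73 in polysomes (adjusted p = 0.0441), with ratios of -2.02, -0.81 and 0.42 under vehicle and 0.45, 0.52 and 0.34 under everolimus. PHLDA1 (1.54 in polysomes) and DUSP4 (2.92), a phosphatase of ERK, rose as well, but their polysome values were highest in the libraries with epithelial transcripts (DUSP4 had 2.5, 7.91 and 13.4 CPM), and the part of these transcripts was not tested. The polysome count of this list was 1 with only the 6 polysome libraries in the fit.

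Lists for the lysosome, NF-kB, interferon and cell identity gave few calls. Of 33 lysosome and autophagy genes 2 rose in polysomes (2.49% of all genes did), 19 shifts were below 0 (median -0.15, and 0.078 with library size only), and PSAP, the precursor of the saposins, had ratios of 2.02, 1.79 and 1.07 under vehicle and 0.42, 0.38 and 0.30 under everolimus (shift -1.40 ± 0.71). In the NF-kB list (17 genes, median shift 0.02) and the interferon list (22 genes, median -0.005, and 0.18 with library size only) no gene passed in either layer. Of 32 genes of myeloid and leukemia identity, HOXA9, a known target of KMT2A fusion proteins, had ratios of -1.05, -1.29 and -0.97 under vehicle and 0.14, -0.29 and 0.03 under everolimus (shift 1.04 ± 0.38) and rose by 0.96 in polysomes (adjusted p = 0.0334). ITGB2, the beta chain of leukocyte integrins, had ratios of 1.47, 1.31 and 1.07 and of 0.21, 0.28 and 0.09 (shift -1.12 ± 0.36). MPO, the neutrophil peroxidase, fell by 1.35 in polysomes (adjusted p = 0.0168), and RUNX1, a myeloid transcription factor, rose by 0.58. The median shift of the 32 was -0.10 (0.10 with library size only). Of 8 tested stromal markers 1 rose in polysomes (2.49% of all genes did), and their median shift was 0.34, but 0.068 with everolimus culture 1 alone and 0.11 without vehicle culture 3. Among single messages fixed for their roles in growth and survival, MYC had a shift of 0.45 ± 0.42, MCL1 of -0.36 ± 0.23, CCND3, a G1 cyclin, of -0.07 ± 0.27, ODC1, the first enzyme of polyamine synthesis, of 0.17 ± 0.30 and FLT3 of -0.02 ± 0.37, all with overlapping cultures.

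**Figure D5:**
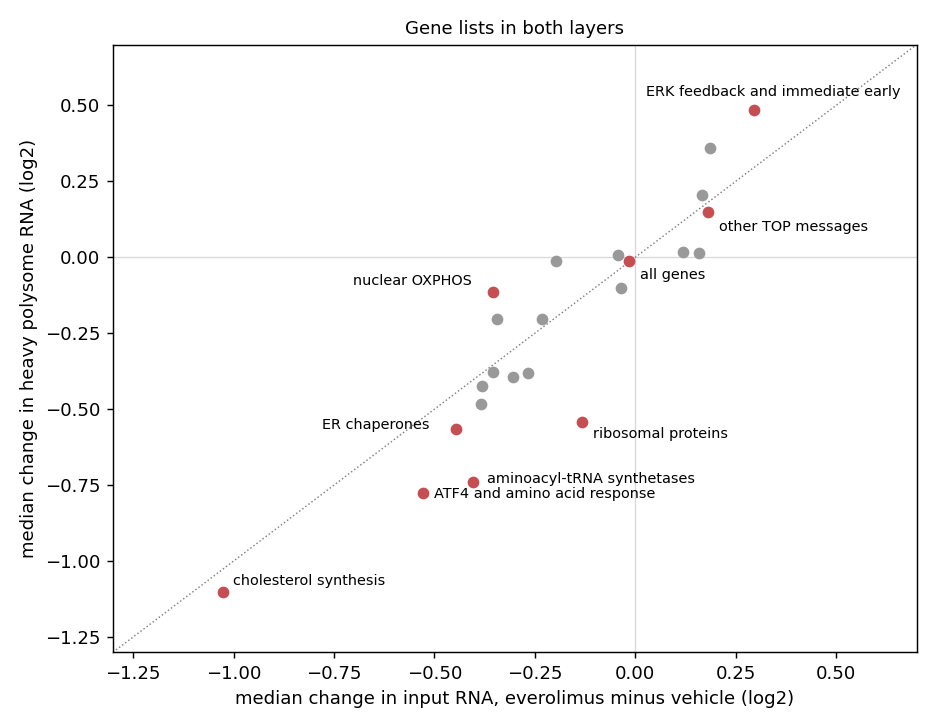
Median change of gene lists (named in red, others in grey, histones and stromal markers left out) in input RNA (horizontal) and heavy polysome RNA (vertical), everolimus minus vehicle, log2. On the dotted line both medians are equal. Cholesterol synthesis lies near the line (-1.03 and -1.10), the ribosomal proteins lie below it (-0.13 and -0.54) and the nuclear OXPHOS genes above it (-0.35 and -0.11).

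The ribosomal proteins in each layer are given last, with their range over the alternatives. In input 0 of the 80 ribosomal protein genes passed the test and the median change was -0.13. In polysomes 15 fell (18.8% of the 80, against 2.64% of all genes), 0 rose, and the median change was -0.54. Over the alternatives 0 to 1 rose, and the count of falls ran from 0 to 35. The count was 0 with library size only, with only the 6 polysome libraries in the fit, without everolimus culture 1 or 2 and with everolimus culture 1 alone, 1 without everolimus culture 3, 24, 8 and 4 without vehicle cultures 1, 2 and 3, and 32 in DESeq2. Ribosomal proteins took 15.7% to 16.4% of input counts under everolimus and 13.7% to 20.5% under vehicle, and 10.6% to 11.5% of polysome counts under everolimus and 11.3% to 16.9% under vehicle.

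To ask whether everolimus acted on polysomes differently when FLT3 was also inhibited, its shift alone was compared with the shift from adding it to quizartinib (3 nM) in hBMSC-CM, which uses other samples. The difference passed the test in 0 of 12939 genes (0%) in edgeR, limma voom and DESeq2, with 487 (3.76%) at an unadjusted p under 0.05. The median ratio of the ribosomal proteins was -0.63, -0.43 and -0.22 under quizartinib and -1.15, -0.84 and -1.28 under combo, so it lay lower with everolimus on either background. For the nuclear OXPHOS genes it was 0.39, 1.07 and 0.57 under quizartinib and 0.15, 1.18 and 0.40 under combo, and 61 of 74 differences between the shifts were below 0 (49% of all genes were; median -0.31, beside 0.01 over all genes). For the ribosomal proteins 65 of 80 such differences were below 0 as well, with a median of -0.24. Everolimus was also set against quizartinib directly, a contrast that shares the everolimus cultures with the shift. Again 0 genes passed in edgeR (0%) and limma voom and 2 in DESeq2, with 328 (2.53%) at an unadjusted p under 0.05. The ribosomal proteins had a median difference of -0.02, with 46 of 80 below 0 (61.3% of all genes were), and the aminoacyl-tRNA synthetases one of -0.33, with 18 of 20 below 0.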

How the data were processed

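Poly(A) RNA was sequenced from input and heavy polysomes of cultures given everolimus or vehicle in hBMSC-CM (12 libraries, 3 replicates a group). Before harvest cells received cycloheximide. The authors trimmed reads with BBDuk, aligned them to hg38 with STAR 2.6.0a and summarised them by gene. Per the file, the deposited numbers are raw counts without normalization. Whether strand was used is not given in the sources used here. Errors do not cover PCR duplication.

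Here 58884 rows were summed to 57353 gene names, and 12939 genes passed the filter (mean over the 42 libraries: 1 count and 1 CPM or more). They held 99.8% of counts. 0 sample columns were unused. One edgeR 4.0.16 fit (R 4.3.3) covered the 42 libraries: robust quasi-likelihood, TMM, 14 group means, no block. The polysome shift was its interaction with fraction, SE the change over the root of F, and a gene was called below 0.05 after Benjamini-Hochberg adjustment. A prior count of 2 entered log2 CPM. CPM of genes are TMM-scaled and summed marker CPM are not. The fit was tested on simulated data whose planted changes were larger than most shifts given here. That test does not show whether smaller shifts would be called.

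The naming rule took 24 fixed genes, the largest call per direction in input and in polysomes, up to 4 genes with the smallest shift p from each of 27 lists and, since no shift passed, the 5 smallest p per direction above 10 CPM without overlap. Some of these are not printed. Members, lists and rule were chosen with earlier results of these data known. Gene positions come from GENCODE v44 and starts from RefSeq (9292 tested genes matched). The alternatives were limma 3.58.1 voom, DESeq2 1.42.0, other scalings and filters, fewer libraries, blocks and leaving out each culture.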

Additional observations from a re-analysis of the deposited data

Results flagged for a closer look

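All gene lists were searched for culture medians that did not overlap and lay in opposite directions in the everolimus comparisons without and with quizartinib. The aminoacyl-tRNA synthetases were the only list found. The lack of overlap given below is thus the rule that picked them and is no further support. In hBMSC-CM without quizartinib the median ratio of heavy polysome to input was lower in every everolimus culture (-0.01, 0.03 and -0.16) than in every vehicle culture (0.59, 0.28 and 0.34). On quizartinib it was higher in every combo culture (0.52, 0.42 and 0.56) than in every quizartinib culture (0.35, 0.06 and 0.21). The median over the 20 genes of the difference between the shifts was 0.47, and 2 of the 20 differences were below 0. The difference was not tested for the group, and no single member passed the test of the difference in edgeR.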

How the results depend on the processing

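The polysome shift was called in 7 genes by DESeq2, in 19 (18 higher) with no filter on low counts, in 0 to 6 with 1 culture left out (6 without everolimus culture 1) and in 2 (KRT7 and KRT81) with the replicate number as a block. It was called in 0 in every other alternative run, among them limma voom, a replicate block per culture and everolimus culture 1 alone. The replicate numbers do not pair the groups: deviations of same-numbered everolimus and vehicle libraries correlated at -0.09 to 0.03. Input, 53 as reported, gave 103 in limma voom, 428 in voom with a spread for each group, 164 in DESeq2, 96 with no filter, 244 with the replicate block and 9 to 63 with 1 culture left out (9 without everolimus culture 3). Heavy polysomes, 663 as reported, gave 1039 in DESeq2, 123 with only the libraries compared, 1469 with the replicate block, 147 to 916 with 1 culture left out (147 without everolimus culture 2) and 13 with everolimus culture 1 alone. Library size only gave 785 higher and 137 lower there. The difference from the shift on quizartinib gave 9 with no filter and 0 to 2 with 1 culture left out. Everolimus against quizartinib gave 2 in DESeq2, 30 with no filter and 0 to 6 with 1 culture left out. The cause of these moves was not tested. Everolimus culture 1 alone and the spread for each group were chosen after seeing the data.

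Shifts of 14 named genes changed sign somewhere. EEF1A1 was 0.021 in limma voom, in voom with group spreads and on per-culture differences, 0.026 with the culture block and 0.12 with library size only, where CCND3 was 0.13, ATF4 0.093 and FLT3 0.19. FBXO32 was -0.023 in DESeq2 and with RLE factors, and FLT3 was 0.011 with no filter. With everolimus culture 1 alone IDH3A was -0.023, CYCS -0.012, FLT3 9.64e-04, FBXO32 -0.027 and STC2 -0.26. With 1 culture left out the shift ranged from -0.39 to 0.23 for ATF4, -0.29 to 0.11 for CCND3, -0.27 to 0.42 for EEF1A1, -0.40 to 0.19 for EIF4B, -0.13 to 0.24 for FBXO32, -0.29 to 0.20 for FLT3, -2.05 to 0.43 for HIST1H1C, -0.023 to 0.17 for IDH3A, -0.043 to 1.22 for MT-ND6, -0.097 to 0.54 for PABPC1, -0.080 to 0.43 for SNHG6 and -0.45 to 0.31 for TPT1.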
